A study of Mus musculus with 6 samples.

Results

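The genes described here encode the parts of the T cell receptor (TCR) complex that do not vary between clones, the coreceptors and the first enzymes and adaptor below them. They are 10 of the 32285 genes in the matrices, chosen by name: Cd3d, Cd3e, Cd3g and Cd247 for the CD3 chains, Cd8a, Cd8b1 and Cd4 for the coreceptors, and Lck, Zap70 and Lat for proximal signalling. They were measured in T cells sorted as CD3+ from intracranial CT2A tumors of wild-type (WT) C57BL/6J mice aged 6 to 8 weeks. CT2A is a mouse glioma line implanted in the brain. The early group was taken at day 13 from 16 mice, in pools of 4 mice per replicate, and the late group at day 19 from 4 mice. Each day was 1 capture with 10x Genomics 5' chemistry, from which gene expression, antibody tag and TCR libraries were made, so the 6 libraries form 2 groups of 1 sample. Day, capture and staining cannot be told apart, there is no untreated or tumor-free group, and no difference has a replicate check or a p-value.

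A T cell recognises its antigen through the variable alpha and beta chains (TRA and TRB), which have no signalling tails of their own. CD3 gamma, delta and epsilon and the zeta chain, the product of Cd247, carry those tails, and zeta joins last when the complex is assembled. CD8, a pair of alpha and beta chains, or CD4 binds the presenting molecule and brings the kinase Lck to the complex. Lck phosphorylates the CD3 tails, the kinase ZAP-70 docks on them, and ZAP-70 phosphorylates the adaptor LAT. In tumors, CD8 T cells that keep meeting antigen take on exhausted states. PD-1 (Pdcd1) marks these cells, the transcription factor TCF-1 (Tcf7) their self-renewing part and the receptor TIM-3 (Havcr2) their late part. Foxp3 marks regulatory CD4 T cells.

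Described cells were barcodes of the TCR contig tables with at least 5000 gene UMIs, at most 10% mitochondrial UMIs and at most 3 UMIs of C1qa, Lyz2 and Csf1r together. UMIs (unique molecular identifiers) count captured molecules. This kept 3775 of 8359 contig barcodes at day 13 and 2159 of 4295 at day 19, with medians of 7126 and 8792 UMIs per cell. The CD8 class needed at least 1 UMI from Cd8a and Cd8b1 together, with Cd4 at 0, and numbered 2646 and 1436 cells. The CD4 class was the reverse, with 499 and 377. Barcodes with both coreceptors (182 and 114) were left out as possible doublets, and those with neither were 448 and 232. The 4 contig tables of a day split its barcodes with no overlap, and a table's barcodes are called a set here. Sets 1 to 4 of a day share its capture, are not stated to be separate animals, and describe spread only; set 1 of day 19 held 158 cells and the others 393 to 1363. The days share 58 contig barcode sequences. The 5 T cell markers were detected in both classes, neutrophil markers (S100a8 and S100a9) were at 0 in both, and 3 glioma and brain markers summed to at most 0.447 CPM, which is UMIs of a gene per 1000000 gene UMIs. Other markers were not absent: in CD4 T cells 4 dendritic cell markers summed to 70.0 and 41.9 CPM and 3 B cell markers to 37.1 and 9.82 CPM, and in CD8 T cells 3 natural killer (NK) cell markers to 63.7 and 71.0 CPM. Of cells with 3 or more Cd4 UMIs, 26.3% and 23.6% also had a Cd8a or Cd8b1 UMI, and of cells with 3 or more Cd8a and Cd8b1 UMIs 4.07% and 3.14% had a Cd4 UMI.

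Cd3g, Cd3d and Cd3e lie together on chromosome 9. In mm10, Cd3g spans chr9:44969572-44980431, Cd3d chr9:44981769-44987052 and Cd3e chr9:44998735-45009663, and the RefSeq first bases around which the windows below were taken are 1355 bases apart for Cd3g and Cd3d, which point away from each other. Cd8a, at chr6:71373427-71379171, lies on chromosome 6 near Cd8b1, at chr6:71322788-71337492. The 300 bases around the start (250 before and 50 after) are printed for Cd3g and Cd8a, whose RNA was past the fold in the same comparisons below, and for Cd3d, the nearest neighbour of Cd3g, whose ratios were smaller. RefSeq (GRCm38.p6) gave a start window for 8 of the 10 genes. Capitals mark the core of sites for ETS factors, GGAA or its reverse complement TTCC.
Cd3g, chr9:44980382-44980681, minus strand: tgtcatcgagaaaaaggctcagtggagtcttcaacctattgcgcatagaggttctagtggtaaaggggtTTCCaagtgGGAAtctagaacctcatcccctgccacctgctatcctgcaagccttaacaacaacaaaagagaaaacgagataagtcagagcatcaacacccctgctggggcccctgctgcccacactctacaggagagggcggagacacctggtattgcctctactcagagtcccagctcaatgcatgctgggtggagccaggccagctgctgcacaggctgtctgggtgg
Cd3d, chr9:44981536-44981835, plus strand: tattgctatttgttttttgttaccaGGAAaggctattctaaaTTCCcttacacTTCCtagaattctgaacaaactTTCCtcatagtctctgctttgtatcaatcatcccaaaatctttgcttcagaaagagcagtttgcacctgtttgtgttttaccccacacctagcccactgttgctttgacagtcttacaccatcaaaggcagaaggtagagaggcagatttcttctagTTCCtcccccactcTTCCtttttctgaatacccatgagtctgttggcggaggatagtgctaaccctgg
Cd8a, chr6:71373177-71373476, plus strand: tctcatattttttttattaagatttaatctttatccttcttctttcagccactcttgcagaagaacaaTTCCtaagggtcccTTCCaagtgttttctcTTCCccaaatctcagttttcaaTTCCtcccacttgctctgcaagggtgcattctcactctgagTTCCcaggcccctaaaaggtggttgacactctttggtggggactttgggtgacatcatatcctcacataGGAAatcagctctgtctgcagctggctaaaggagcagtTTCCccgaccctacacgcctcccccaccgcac
The Cd3g window held 2 matches, the Cd3d window 6 and the Cd8a window 7, against a median of 3.0 over all 32851 windows, of which 96.0% held at least 1. The letters TGTGGT of RUNX sites, searched on both strands, were in none of these 3 windows and in 16.8% of all windows. A match of so few letters is a description of the sequence and shows no binding.

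Levels are CPM of UMIs summed over the cells of a group, and differences are log2 ratios of CPM with an exact Poisson 95% interval, which covers counting error only. A gene counted as higher or lower when its log2 ratio was at least 0.5 in size, and for comparisons of states or clones on both days. Genes needed at least 100 UMIs in the 2 groups together. States were called on 5000 UMIs drawn from each cell, so that every cell had the same number of UMIs in which a marker could be seen. Pdcd1-positive CD8 T cells with Tcf7 and without Havcr2 are called the Tcf7 state (293 and 97 cells), those with Havcr2 and without Tcf7 the Havcr2 state (138 and 200 cells), and those with neither Pdcd1 only (450 and 323 cells). Pdcd1-negative cells numbered 1754 and 815. The names describe marker UMIs, and a missing UMI does not show a missing transcript.

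Among the CD3 chains, Cd3g, which encodes CD3 gamma, differed most between the Havcr2 and Tcf7 states of CD8 T cells. At day 13 its level in the 4 sets was 1241, 1658, 1338 and 1486 CPM in the Havcr2 state and 991, 939.6, 968 and 814 CPM in the Tcf7 state. Every Havcr2-state set lay above every Tcf7-state set, and the log2 ratio was 0.66 (95% interval 0.58 to 0.74). At day 19, where set 1 had too few cells in the Havcr2 state (under 10), sets 2 to 4 had 1921, 1483 and 1496 CPM against 812, 967 and 851 CPM, again without overlap, and the log2 ratio was 1.08 (0.98 to 1.19). Cd3e, the chain that pairs with both gamma and delta, had 1397 against 1156 CPM at day 13 and 1610.0 against 992 CPM at day 19. Its log2 ratios were 0.27 (0.20 to 0.35) and 0.70 (0.60 to 0.80).

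Cd3d, which encodes CD3 delta, had 997 against 1016 CPM at day 13, and its log2 ratios were -0.03 (-0.11 to 0.06) and 0.43 (0.32 to 0.54). Cd247, the zeta chain, was below the Tcf7 state in 4 of 4 sets at day 13, with a log2 ratio of -0.24 (-0.41 to -0.07), and in 2 of 3 sets at day 19, with 0.10 (-0.12 to 0.33). The chains of the complex thus did not differ by one common factor: Cd3g made up 27.3% and 29.3% of the UMIs of the 4 chains in the Tcf7 state at day 13 and day 19, and 35.7% and 37.6% in the Havcr2 state. Cd247 made up 8.71% and 7.28%, and 6.09% and 4.74%. Summed over the 4 chains, the complex had a log2 ratio of 0.28 (0.23 to 0.32) at day 13 and 0.72 (0.67 to 0.78) at day 19.

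**Figure D1:**
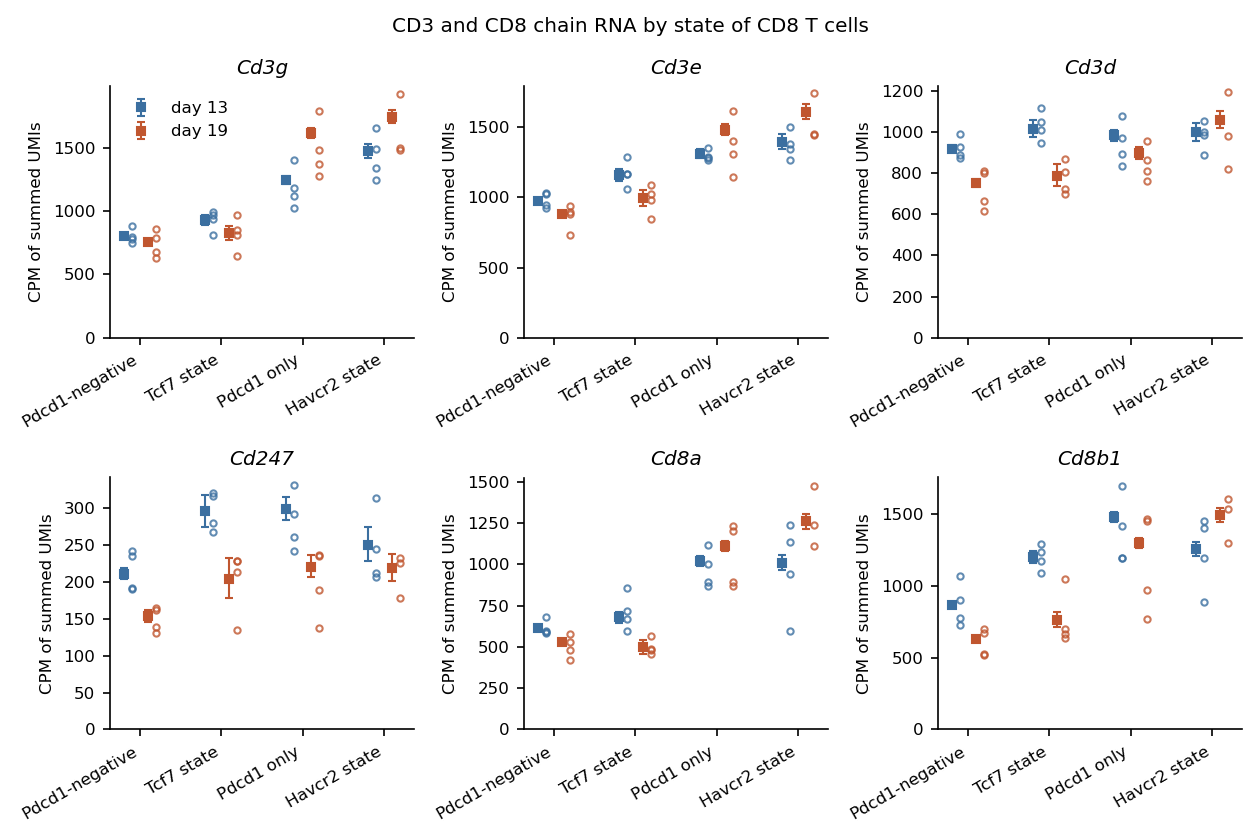
CPM of Cd3g, Cd3e, Cd3d, Cd247, Cd8a and Cd8b1 in CD8 T cells by state; squares are the sums over all cells of a day with exact Poisson 95% intervals, open circles the contig sets with at least 10 cells, blue day 13 and red day 19. Cd3g reaches 1470.2 and 1742 CPM in the Havcr2 state from 929 and 823 CPM in the Tcf7 state, while Cd247 shows no such step.

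Of the coreceptor chains, Cd8a had a log2 ratio between the same states of 0.57 (0.48 to 0.67) at day 13 and 1.34 (1.21 to 1.48) at day 19. Its day-13 sets had 942, 1236, 1132 and 596 CPM in the Havcr2 state and 856, 715, 596 and 670.0 CPM in the Tcf7 state, and set 4 went the other way. Without day-13 set 2 or set 3 the day-13 ratio was 0.45 or 0.43, short of the threshold. At day 19 the 3 sets had 1235, 1472 and 1112 against 479, 565 and 458 CPM, with no overlap. Cd8b1, the beta chain, had 0.07 (-0.01 to 0.15) at day 13, with overlapping sets, and 0.97 (0.86 to 1.08) at day 19. Cd8b1 held 63.9% of Cd8a plus Cd8b1 UMIs in the Tcf7 state at day 13 (exact binomial 95% interval 62.5 to 65.3) and 55.5% in the Havcr2 state (54.0 to 57.0). At day 19 the shares were 60.6% (58.0 to 63.1) and 54.3% (53.1 to 55.5). The shares of the day-13 sets were 59.1%, 64.3%, 64.6% and 63.6% in the Tcf7 state and 55.8%, 53.1%, 56.1% and 59.8% in the Havcr2 state, which overlap through set 1 and set 4. The day-19 difference in the Cd8b1 share, -6.30 percentage points, was 0.12 with classes by antibody tags, -2.65 with states on all UMIs and -3.59 without day-19 set 3. A share of UMIs is not a ratio of molecules, since capture can differ between the genes, and only its differences between groups are read.

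Of the signalling genes, Zap70 was higher in the Havcr2 state in 4 of 4 sets at day 13 and 3 of 3 at day 19, with log2 ratios of 0.26 (0.07 to 0.44) and 0.62 (0.39 to 0.85), of which the first was short of the threshold. With classes by antibody tags its ratios were -0.06 and -0.20, so that the direction turned. Lck had 558 against 647 CPM at day 13, and its log2 ratios were -0.21 (-0.32 to -0.10) and 0.03 (-0.11 to 0.18). Lat had -0.06 (-0.18 to 0.07) and 0.09 (-0.07 to 0.24). By the rule of both days, 2 of 9 genes measured in CD8 T cells were higher (Cd3g and Cd8a), against 6.49% of all 4470 genes tested, and 0 were lower, against 4.92%. The median log2 ratio of the 9 genes was 0.07 and 0.62, against 0.11 and -0.02 over all genes.

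The states differed in depth and cycling as well. Median UMIs per cell were 6827 and 8832 in the Tcf7 state and 11224 and 11013 in the Havcr2 state. Cells with an Mki67 or Top2a UMI made up 24.2% and 33.0%, and 41.3% and 45%. This call of cycling, used throughout, took all UMIs of a cell and not the draw of 5000, so deeper cells could pass it more readily. As a level, Mki67 and Top2a summed to 151 and 342 CPM in the Tcf7 state and 399 and 378 CPM in the Havcr2 state. Among cells with 5000 to 10000 UMIs the differences were larger at day 13: the log2 ratio of the CD3 complex was 0.70 at day 13 and 0.78 at day 19, that of Cd3g 1.16 and 1.03, and that of Cd8a 1.00 and 1.38. In this window 5 of 9 genes were higher on both days, against 10.6% of all genes, and Cd8b1, at 0.72 and 0.71, Zap70, at 0.64 and 1.15, and Cd3e, at 0.73 and 0.67, were among them. With at least 8000 UMIs, and with scaling by the median gene, only Cd3g was, against 4.84% and 5.3% of all genes. The part that depth has in these differences was not tested further. Macrophage and microglia markers (5 genes) summed to 42.1 and 26.9 CPM in the Tcf7 state and 44.6 and 33.5 CPM in the Havcr2 state. The NK cell markers summed to 74.1 and 35.0 CPM, and 33.1 and 36.7 CPM, against 76.3 and 92.3 CPM in Pdcd1-negative cells. The part of these markers in the differences was not tested.

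Across all CD8 T cells, Pdcd1-positive cells (892 and 621) had more Cd3g, Cd8a and Cd8b1 RNA than Pdcd1-negative cells. Cd3g had 1090.3, 1317, 1116 and 1159.6 CPM in the sets of day 13 against 796, 884, 747 and 776 CPM, and 1106, 1743, 1381 and 1326 against 679, 791, 855 and 631 CPM at day 19. Positive sets lay above negative sets on both days, with log2 ratios of 0.59 (0.55 to 0.62) and 1.03 (0.98 to 1.07). Cd8a had 0.59 (0.54 to 0.63) and 1.02 (0.97 to 1.07), and Cd8b1 0.65 (0.62 to 0.69) and 1.03 (0.98 to 1.08). Cd3d had 0.12 (0.08 to 0.16), higher in 3 of 4 sets, and 0.31 (0.26 to 0.36), higher in 4 of 4. The CD3 complex had 0.38 (0.36 to 0.40) at day 13, short of the threshold, and 0.71 (0.68 to 0.73) at day 19. Cd3g, Cd8a and Cd8b1 were the 3 of 9 genes higher on both days, against 6.93% of all 8504 genes, and 0 were lower, against 3.09%.

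Cd3e and Cd247 had smaller ratios in this comparison, 0.40 and 0.72 for Cd3e and 0.46 and 0.50 for Cd247, and both were higher in 4 of 4 sets on each day. Cd247 was lowest in Pdcd1-negative cells at day 13 and lower in the Havcr2 than in the Tcf7 state: its level was 212, 296, 299 and 251 CPM in the Pdcd1-negative, Tcf7, Pdcd1-only and Havcr2 groups of day 13. Zap70 had 0.29 and 0.52, and Lat 0.23 and 0.26. Lck hardly differed, at 630.1 against 619 CPM at day 13 and 551 against 510.2 CPM at day 19, log2 ratios of 0.03 (-0.02 to 0.07) and 0.11 (0.05 to 0.17). With at least 8000 UMIs 0 of 9 genes were higher on both days, against 3.24% of all genes, since the day-13 ratios of Cd3g, Cd8a and Cd8b1 were 0.46, 0.44 and 0.42. With 5000 to 10000 UMIs, or without cycling cells, 5 were, against 7.42% and 6.86% of all genes. Scaling by the median gene, or leaving ribosomal, mitochondrial and TCR genes out of the total, left only Cd8b1, against 5.23% and 4.62%. Cycling cells made up 16.0% and 27.0% of Pdcd1-negative and 41.8% and 46.1% of Pdcd1-only cells. The NK cell markers summed to 76.3 and 92.3 CPM in Pdcd1-negative and 33.8 and 58.1 CPM in Pdcd1-only cells. Their part in this comparison was not tested. The median log2 ratio of the 9 genes was 0.40 and 0.52, against 0.11 and 0.08 over all genes.

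**Figure D2:**
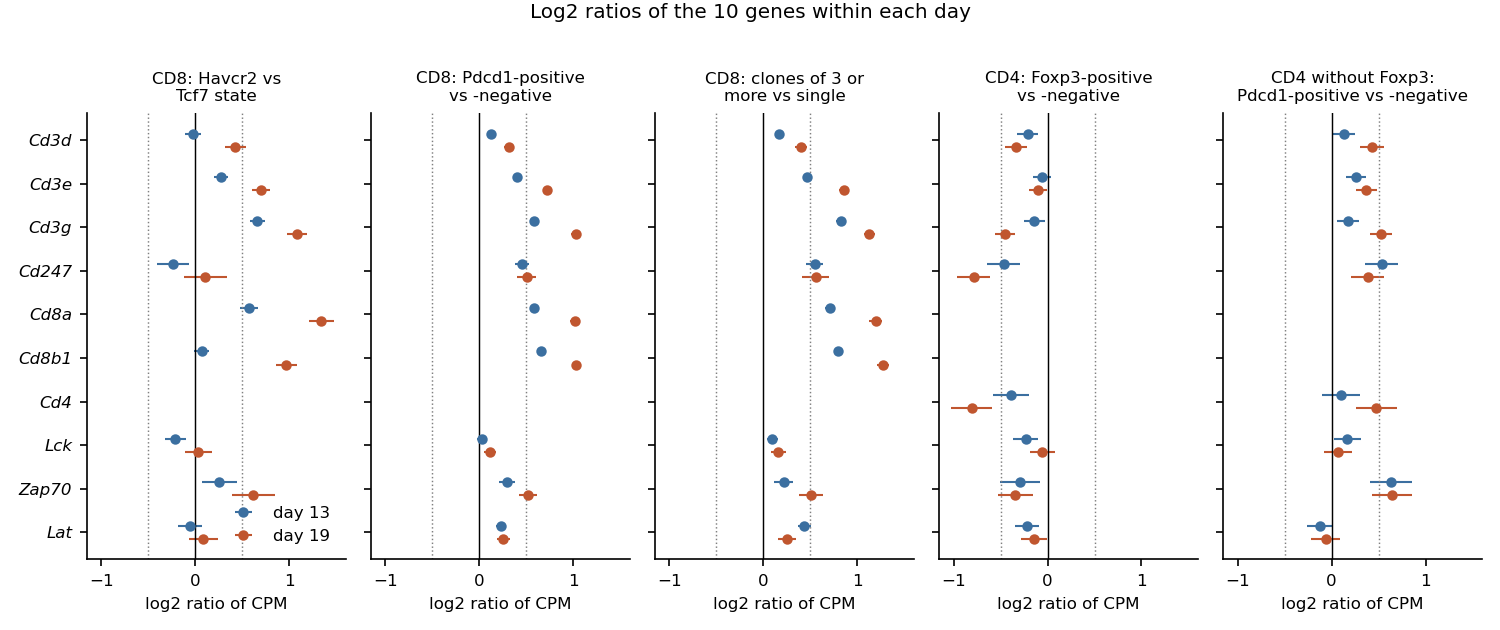
Log2 ratios of CPM (x axis) of the 10 genes in 5 comparisons; blue is day 13 and red day 19, bars are exact Poisson 95% intervals, and dotted lines mark 0.5 and -0.5. In the 3 CD8 panels Cd3g and Cd8a lie to the right of 0.5 on both days and Lck stays near 0, between -0.21 and 0.16; in the Foxp3 panel Cd247 and Cd4 lie furthest to the left.

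Cells of a set with exactly 1 TRA and 1 TRB contig and the same CDR3 nucleotides in both were taken as a clone (CDR3 is the most variable loop of the chains). CD8 T cells in clones of 3 or more (445 and 251 cells) were compared with those alone in their clone (1381 and 647). Cd3g had 1250.0, 1516, 1292 and 1469 CPM in the sets of day 13 against 852, 849, 789 and 785 CPM, and 1183, 1920.4, 1406 and 1826 against 749, 818, 866 and 679.9 CPM at day 19. The sets did not overlap, and the log2 ratios were 0.82 (0.78 to 0.86) and 1.13 (1.07 to 1.18). Cd8b1 had 0.80 (0.76 to 0.84) and 1.27 (1.21 to 1.33), Cd8a 0.71 (0.66 to 0.76) and 1.20 (1.13 to 1.26), and Cd247 0.55 (0.45 to 0.64) and 0.56 (0.41 to 0.70). Without day-13 set 2 the ratio of Cd247 at day 13 was 0.22, and without day-19 set 2 or set 4 that of day 19 was 0.46 or 0.47. The call for Cd247 also ended with equal weight of sets (0.31 and 0.42), with a total without ribosomal, mitochondrial and TCR genes (0.38 and 0.42), with median scaling (0.43 at day 13) and with classes by antibody tags (0.28 at day 19). These 4 of 9 genes were higher on both days, against 7.48% of all 7362 genes, and 0 were lower, against 4.6%. Lck had 0.09 and 0.16, Lat 0.43 and 0.25, Zap70 0.21 and 0.51, Cd3d 0.17 and 0.40, and Cd3e 0.47 and 0.86. In set 4 of day 13, Cd8a had 617 against 666 CPM and Cd8b1 857 against 873 CPM, so that neither was higher there. With at least 8000 UMIs, only Cd3g was higher on both days, against 4.15% of all genes. The median log2 ratio of the 9 genes was 0.47 and 0.56, against 0.12 and 0.05 over all genes. Median depth was 6909 and 8044 UMIs in single cells, 8499 and 7639 in clones of 3 to 4, 7393 and 10744 in clones of 5 to 9 and 9513 and 11054 in clones of 10 or more. In the same order 17.7% and 28.8%, 40.7% and 23.1%, 35.2% and 47.0% and 42.6% and 47.3% were cycling. Clones of 3 to 4 at day 19 were thus below single cells in both.

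Clone size and Pdcd1 overlap, so each was also taken within the other. Among Pdcd1-negative cells (117 and 49 in clones of 3 or more, 1103 and 506 single), Cd3g had log2 ratios of 0.75 (0.67 to 0.83) and 1.06 (0.95 to 1.17), Cd8a 0.65 (0.55 to 0.74) and 1.02 (0.88 to 1.15), and Cd8b1 1.09 (1.01 to 1.16) and 1.16 (1.04 to 1.28). Among Pdcd1-positive cells (328 and 202 against 278 and 141), Cd3g had 0.55 (0.49 to 0.62) and 0.64 (0.56 to 0.72) and Cd8a 0.42 (0.35 to 0.49) and 0.79 (0.70 to 0.89). Among single cells, Pdcd1-positive against Pdcd1-negative gave 0.45 (0.38 to 0.51) and 0.80 (0.72 to 0.89) for Cd3g and 0.48 (0.41 to 0.55) and 0.69 (0.59 to 0.80) for Cd8a. For Cd3g and Cd8a both divisions thus went the same way in these splits. A cell without a Pdcd1 UMI can still express Pdcd1, so Pdcd1 was held only in part. Depth and cycling were not held. Pdcd1 within clones of 3 or more, and Cd8b1 outside Pdcd1-negative cells, are not given for these splits. The difference between the divisions was not tested.

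By clone size, Cd3g went from 816 CPM in single cells of day 13 to 1151 in pairs, 1256 in clones of 3 to 4, 1485 in clones of 5 to 9 and 1507 in clones of 10 or more. At day 19 the levels were 783, 1267, 1214, 1578 and 1886 CPM. The intervals of pairs and clones of 3 to 4 overlapped on both days, as did those of the largest groups at day 13. Cd8a at day 13 was lower in clones of 10 or more (993 CPM) than in clones of 5 to 9 (1139 CPM), and the largest clones varied widely. The 10 CD8 clones of day 13 with at least 10 cells held 11 to 30 cells, and their Cd8a ranged from 489 to 1486 CPM with a median of 1236. The lowest was a clone of 30 cells in set 4, with 489 CPM of Cd8a and 624 CPM of Cd8b1 but 1503 CPM of Cd3g. Of its cells 56.67% were in the Havcr2 state. Cd3g ranged from 955 to 2069 CPM over the clones of day 13 with at least 10 cells, with a median of 1416. Clones of 27 and 12 cells in set 2 had 956 and 955 CPM, against 962 CPM in all CD8 T cells of that day. Cd247 ranged from 162 to 617 CPM over these clones of day 13, and Lck from 477 to 885 CPM. At day 19 the 5 such clones held 10 to 57 cells, with 1514 to 2771 CPM of Cd3g and 534 to 705 CPM of Lck. The Cd8b1 share ranged from 50.9% to 70.8% over the clones of day 13 and from 52.0% to 56.6% over those of day 19.

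**Figure D3:**
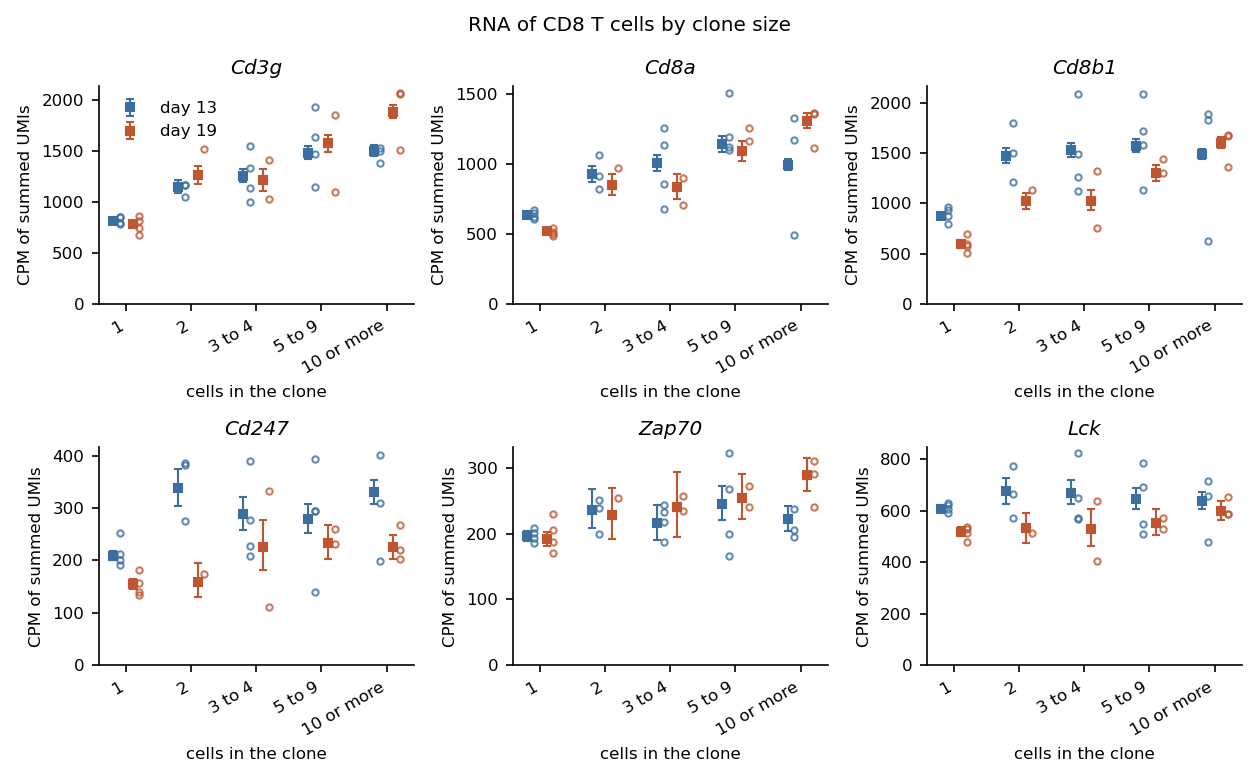
CPM of 6 of the genes in CD8 T cells against the number of cells in the clone; squares with exact Poisson 95% intervals are sums over a day, open circles the sets with at least 10 cells, blue day 13 and red day 19. Cd3g, Cd8a and Cd8b1 are lowest in single cells on both days, while Lck lies between 517 and 675 CPM.

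In CD4 T cells, Foxp3-positive cells (135 and 109) had less Cd247 and Cd4 RNA than Foxp3-negative cells (364 and 268). Cd247 had 195, 254, 283 and 232 CPM in the sets of day 13 against 411, 297, 353 and 327 CPM, and 273, 252 and 278 against 469.6, 434 and 496 CPM in sets 2 to 4 of day 19. Every Foxp3-positive set lay below every negative set on both days, with log2 ratios of -0.47 (-0.65 to -0.29) and -0.79 (-0.97 to -0.61). Cd4 had 218, 206, 229.5 and 187 against 302, 279.9, 267 and 262 CPM at day 13. Its log2 ratios were -0.39 (-0.59 to -0.19) and -0.81 (-1.03 to -0.59), and its sets did not overlap on either day. Since a Cd4 UMI was needed to enter the class, cells with the least Cd4 RNA are missing from both sides. When cells with neither coreceptor were counted as CD4, the ratios were -0.10 and -0.47 for Cd247 and 0.14 and -0.59 for Cd4. The direction of Cd4 at day 13 thus turned, but the added cells have no Cd4 UMI by definition. The Cd4 ratio then also follows how these cells divide by Foxp3, so it cannot decide the direction. Their NK cell markers summed to 70.0 and 88.9 CPM, against 10.1 and 7.43 CPM in the main CD4 class. In the main class the day-13 ratios were short of the threshold, so 0 of 8 genes were lower on both days, against 2.81% of all 4843 genes, and 0 were higher, against 3.32%. Cd3e, at -0.06 and -0.10, and Lck, at -0.23 and -0.06, differed less. This does not hold for the CD3 chains as a whole, whose sum had -0.34 at day 19. Without cycling cells the day-19 ratio of Cd4 was -0.37, and that of the CD3 complex went from -0.34 to -0.06. With 5000 to 10000 UMIs the complex was at 0.10 and -0.07, while Cd247 was at -0.18 and -0.57. Foxp3-positive cells had a median of 7985 and 8945 UMIs, with 25.9% and 45.0% cycling. Cells with neither Foxp3 nor Pdcd1 had 6575 and 7360.0 UMIs, with 22.0% and 28.0% cycling. In this order Mki67 and Top2a summed to 151 and 257 CPM, and 141 and 191 CPM. The 5 macrophage and microglia markers summed to 96.2 and 66.3 CPM, and 82.9 and 76.2 CPM. The dendritic cell markers summed to 106 and 26.7 CPM, and 65.7 and 72.6 CPM, and the B cell markers to 47.8 and 0 CPM, and 53.8 and 9.08 CPM. Cells with Pdcd1 and no Foxp3, the rest of the Foxp3-negative cells, had a median of 6844 and 8126 UMIs, with 19.9% and 33.3% cycling. They had 175 and 167 CPM of Mki67 and Top2a. Their macrophage and microglia markers summed to 60.8 and 83.9 CPM, and their dendritic and B cell markers are given below. The part of these markers in the differences was not tested. The median log2 ratio of the 8 genes was -0.23 and -0.34, against 0.02 and 0.04 over all genes.

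Among CD4 T cells without Foxp3, those with Pdcd1 (141 and 150) had more Zap70 than those without (223 and 118). Zap70 had 329.5, 279, 247 and 295 CPM in the sets of day 13 against 224, 209.8, 139 and 158 CPM, and 415, 360.4 and 406 against 237, 314 and 246 CPM in sets 2 to 4 of day 19. The sets did not overlap on either day, and the log2 ratios were 0.63 (0.41 to 0.85) and 0.64 (0.43 to 0.85). Zap70 was the 1 of 8 genes higher on both days, against 1.82% of all 3570 genes, and 0 were lower, against 1.12%. Without day-19 set 2 its ratio at day 19 was 0.42, and with cells of at least 3000 UMIs that of day 13 was 0.25, both short of the threshold. With 5000 to 10000 UMIs the day-19 ratio of Zap70 was 0.48, also short of it. Markers of other cells differed across this split too: the dendritic cell markers summed to 65.7 and 72.6 CPM without Pdcd1 and 35.7 and 31.5 CPM with it, and the B cell markers to 53.8 and 9.08 CPM and 0 and 18.9 CPM. Their part in the result was not tested. Cd247 had 0.53 and 0.38, Cd3g 0.17 and 0.53, and Lat -0.12 and -0.06. CD4 clones of 3 or more held 12 cells at day 13 and 66 at day 19, and against single cells 0 of 8 genes were past the threshold, with 1.48% of 3311 genes higher and 2.66% lower. At day 19, where the numbers allow a value, the CD3 complex had a log2 ratio of 0.23 (0.16 to 0.30).

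The genes that surround the complex were taken as a list of 29 partners, described by counts. Between the Havcr2 and Tcf7 states 0 of 27 with enough UMIs were higher and 2 lower, against 6.49% and 4.92% of all genes: Txk, a Tec-family kinase, at -1.29 and -0.65, and Cd6, at -0.65 and -1.05. With Pdcd1, 0 of 29 were higher and 2 lower, against 6.93% and 3.09% of all genes, Txk at -1.30 and -1.31 and the TCR-interacting adaptor Trat1 at -1.0 and -0.76. In CD8 clones of 3 or more 1 of 28 was higher and 2 lower, against 7.48% and 4.6% of all genes. Themis, a regulator of TCR signalling, was higher at 0.71 and 0.67, and Txk (-1.66 and -1.51) and Tespa1 (-0.87 and -1.76) were lower. The constant segments of the receptor stayed within the threshold in these 3 comparisons: between the Havcr2 and Tcf7 states Trac had 0.02 and 0.12, Trbc1 -0.09 and -0.11, and Trbc2 -0.13 and -0.32. The kinase Fyn had -0.70 and -0.23 there, the adaptor Lcp2 -0.06 and -0.05, the phosphatase Ptprc -0.39 and 0.06, and Csk, which restrains Lck, 0.16 and -0.63. In Foxp3-positive against negative CD4 T cells 5 of 29 partners were lower and 1 higher, against 2.81% and 3.32% of all genes. Themis had -2.04 and -2.30, Tespa1 -1.08 and -0.88, Prkcq -0.85 and -0.89, Trbc1 -0.91 and -0.75, Trbc2 -0.54 and -0.71, and the adhesion receptor Cd2 0.74 and 0.61. The phosphatase Ptpn22 was the 1 of 27 partners higher with Pdcd1 in CD4 T cells without Foxp3, at 0.51 and 0.51, against 1.82% of all genes, and 0 were lower, against 1.12%. In CD4 clones 0 of 26 were higher and 1 lower, Ubash3a at -1.65 and -0.65, against 1.48% and 2.66% of all genes. Between the days 0 of 29 were higher in either class, against 7.23% of all genes in CD8 and 8.3% in CD4 T cells. In CD8 T cells 3 were lower at day 19, against 9.65% of all genes, which were Tespa1 at -0.59, Cd5 at -0.51 and Prkcq at -0.50. In CD4 T cells 2 were lower, against 9.07%, among them Grap2 at -0.69.

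The variable chains were read from the contig tables, as UMIs of productive TRA and TRB contigs per cell. CD8 T cells had a median of 6 TRA and 14 TRB UMIs at day 13 and 8 and 15 at day 19. CD4 T cells had 6 and 11, and 10 and 14. Among the CD4 groups by Foxp3 and Pdcd1, Foxp3-positive cells had the highest share of TRA in TRA plus TRB UMIs. It was 53.2, 45.6, 46.9 and 46.6% in the 4 sets of day 13 and 47.2, 48.7 and 55.2% in sets 2 to 4 of day 19. In cells with neither Foxp3 nor Pdcd1 the shares were 34.9, 31.0, 32.3 and 36.4%, and 32.6, 34.3 and 32.1%, so the sets lay apart on both days. Cells with Pdcd1 and no Foxp3 varied more, at 36.0, 44.1, 34.5 and 28.8%, and 38.3, 29.9 and 39.6%, also below the Foxp3-positive sets of each day, with 35.3% and 37.3% over all their cells. Between Foxp3-positive cells and those with neither gene, the share over all cells was 47.4% against 33.0% at day 13, and 50.0% against 33.4% at day 19. More Foxp3-positive cells carried several TRA contigs (20% against 13.9%, and 14.7% against 7.63%), but in cells with exactly 1 TRA and 1 TRB contig the shares were still 43.6% against 32.5%, and 50.0% against 33.3%. TRB contig UMIs per 10000 gene UMIs were 11.1 and 12.5 in Foxp3-positive cells and 16.6 and 18.2 in cells with neither gene, while TRA UMIs were 10.0 and 12.5, and 8.16 and 9.11. Cells with Pdcd1 and no Foxp3 had 18.1 and 21.0 TRB and 9.88 and 12.5 TRA UMIs per 10000, so their TRA level was close to that of Foxp3-positive cells. In the gene matrix, a separate library of the same cells, Trbc1 and Trbc2 were lower in Foxp3-positive cells on both days, as given above. Trac had 0.17 and 0.10. A high TRA share was also seen by clone size. CD4 clones of 3 or more (12 and 66 cells) had 58.9% and 44.1%, and CD4 T cells alone in their clone 36.3% and 36.1%. How clone size and Foxp3 overlap in this share was not tested.

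Among the states of CD8 T cells the TRA share was lowest in the Tcf7 state, at 27.5% and 28.7%, against 31.6% and 32.8% in Pdcd1-negative cells. The Havcr2 state had 32.9% at day 13 and 41.9% at day 19, with 35.6, 30.4, 36.9 and 31.4%, and 42.6, 41.8 and 38.8% in the sets. The day-19 sets lay above those of day 13. In cells with 1 TRA and 1 TRB contig the day-19 value was 41.2%, and 26% of its cells had several TRA contigs, against 2.17% at day 13. Pdcd1-only cells had nearly the same shares, 31.0% and 41.6%, with 27.8, 30.8, 31.7 and 32.9%, and 36.0, 42.9, 37.8 and 41.7% in the sets, which did not overlap between the days either. Several TRA contigs were in 12.9% and 29.7% of them, and in cells with 1 contig of each chain the shares were 31.0% and 38.8%. Of the 200 cells of the Havcr2 state at day 19, 128 came from set 2, which also held the largest CD8 clone, of 57 cells, with 52.63% in the Havcr2 state. Contig UMIs of the chains differed in direction between the states. TRA UMIs per 10000 gene UMIs were 8.41 in the Tcf7 state and 9.01 in the Havcr2 state at day 13, and 7.62 and 11.2 at day 19, higher in the Havcr2 state as Cd3g was. TRB UMIs per 10000 gene UMIs were 22.2 in the Tcf7 state and 18.4 in the Havcr2 state at day 13, and 18.9 and 15.5 at day 19, lower in the Havcr2 state. Pdcd1-only cells had 9.23 and 11.7 TRA and 20.5 and 16.5 TRB UMIs per 10000. By clone size the TRA share at day 19 was 31.4% in single CD8 T cells and 38.7% in pairs. It was 29.1%, 44.6% and 39.5% in clones of 3 to 4, 5 to 9 and 10 or more. At day 13 the same groups had 31.1, 28.8, 27.3, 32.4 and 30.6%.

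**Figure D4:**
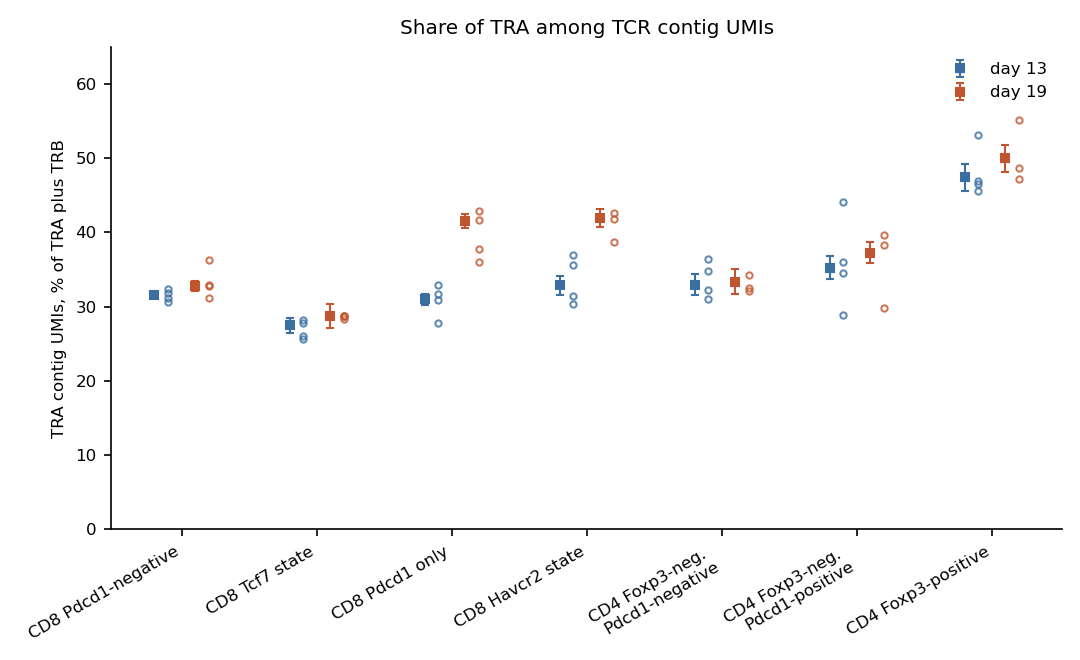
Share of TRA among TRA plus TRB contig UMIs (y axis, %) by state; squares with exact binomial 95% intervals are all cells of a day, open circles the sets with at least 10 cells, blue day 13 and red day 19. Foxp3-positive CD4 T cells reach 47.4% and 50.0%, and the Tcf7 state is lowest.

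Between the days, the CD3 complex of all CD8 T cells had a log2 ratio (day 19 to day 13) of 0.02 (0.01 to 0.04), and from -0.15 to 0.10 with 1 set left out. None of 9 genes was past the threshold (0 higher against 7.23% of all 10052 genes, 0 lower against 9.65%). The genes went different ways. Cd247 had 248, 277, 216 and 218 CPM in the sets of day 13 and 133, 199, 185 and 175 CPM in those of day 19, a log2 ratio of -0.40 (-0.46 to -0.33) with all day-19 sets lower. Lck had 623, 666, 599 and 585 CPM and 472, 533, 534 and 545 CPM, -0.23 (-0.27 to -0.20), also with no overlap. Cd3g had 0.23 (0.20 to 0.26), Cd3d -0.18 (-0.21 to -0.15) and Lat -0.21 (-0.26 to -0.17), all with overlapping sets. The Cd8b1 share was 58.9%, 60.5%, 57.2% and 58.1% in the sets of day 13 and 52.8%, 54.8%, 55.4% and 52.9% in those of day 19, so each day-19 set was lower, and the shares over all cells were 59.0% and 54.5%.

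These totals hide opposite differences between the states. In Pdcd1-negative cells all 9 genes had ratios below 0 at day 19, from -0.46 for Cd8b1 and Cd247 to -0.02 for Zap70, and in the Tcf7 state from -0.65 for Cd8b1 to -0.17 for Zap70 and Cd3g. In the Havcr2 state Cd8a had 0.32 (0.24 to 0.40), Cd8b1 0.25 (0.18 to 0.33) and Cd3g 0.24 (0.18 to 0.31), while Cd247 had -0.19 (-0.37 to -0.01). Over all cells of each state the ratios of the Havcr2 to the Tcf7 state were thus larger at day 19 than at day 13 for each of the 9 genes. With 5000 to 10000 UMIs this held for 4 of them and not for Cd3g, Cd3e and Cd8b1, given above, nor for Lck (0.13 at day 13 and 0.02 at day 19) and Lat (0.30 and -0.21). The difference between the days was not tested. The Tcf7 state had fewer cells than the Havcr2 state at day 19 (97 and 200) and more at day 13 (293 and 138), so totals over CD8 T cells also carry the mix of states.

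**Figure D5:**
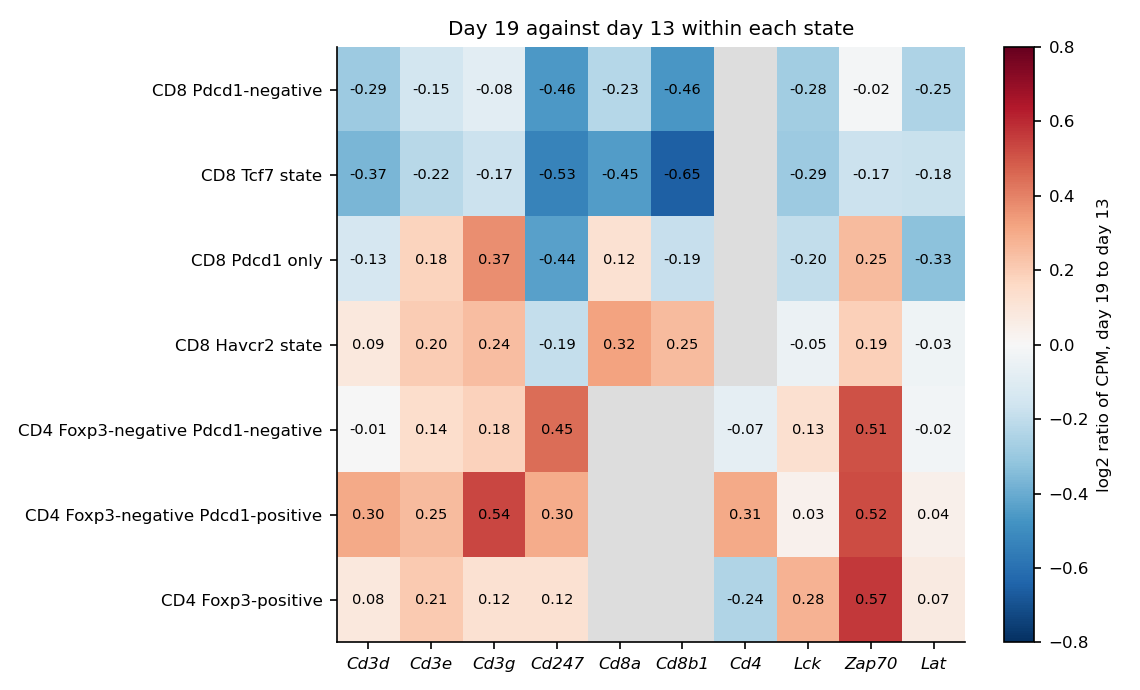
Log2 ratio of CPM, day 19 to day 13, for each gene (columns) within each state (rows); red is higher and blue lower at day 19, and grey marks coreceptors that define the class. The Pdcd1-negative and Tcf7 rows are below 0 for every CD8 gene, and Zap70 is at 0.51 to 0.57 in the 3 CD4 rows.

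In CD4 T cells Zap70 had 228, 217, 191 and 205 CPM in the sets of day 13 and 247, 320.3, 312 and 316 CPM in those of day 19. The sets lay apart, although set 1 of day 19 held 12 CD4 T cells, and the log2 ratio was 0.60 (0.47 to 0.72). It was the 1 of 8 genes higher at day 19, against 8.3% of all 7289 genes, and 0 were lower, against 9.07%. Within the groups by Foxp3 and Pdcd1 the ratio was 0.51, 0.52 and 0.57. It was 0.45 when cells with neither coreceptor were counted as CD4, and 0.48 with at least 3000 UMIs, both short of the threshold. Cd247, which was lower at day 19 in CD8 T cells, had 0.35 (0.25 to 0.46) here.

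At the surface, the antibody tags separated the classes weakly. Of 10000 tag UMIs in CD8 T cells 20.7 and 22.9 were of the CD8a tag, and in CD4 T cells 18.9 and 19.7, against 26.0 and 25.5 for the IgG1 isotype control in CD8 T cells. The CD4 tag had 7.08 and 6.70 in CD8 and 10.4 and 14.8 in CD4 T cells. The CD3 tag had 97.4 and 86.1 in Pdcd1-negative cells, whose CD3 RNA was lower, and 86.1 and 83.0 in Pdcd1-only cells. It had 81.6 and 80.0 in the Tcf7 state and 86.0 and 83.8 in the Havcr2 state, and the TCR beta tag 15.2 and 16.3, and 16.8 and 16.5. In Pdcd1-negative cells the TCR beta tag had 16.3 and 17.7. With tags of the defining coreceptor this close to the isotype control, no difference in surface protein was read from them.

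Over 14 class and state groups of both days, likeness to the CD3 chains was taken as the Pearson correlation of a gene's log2(CPM + 1) with the mean of the standardised values of the 4 chains. The closest gene was AW112010, at 0.91 among 5273 genes. Ybx3 (0.88), Itgb2 (0.88), Dusp19 (0.88) and Pstpip1 (0.88) came next. Of the 4 chains themselves, Cd3e had 0.93, Cd3g 0.90, Cd3d 0.86 and Cd247 0.36. Zap70 had 0.70, Lck 0.59 and Lat 0.23. The groups share 2 captures and their depth, and the correlations are a description.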

How the data were processed

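Raw UMI counts of genes and antibody tags by barcode were deposited as matrices, and the deposited contig tables list UMI counts of each TCR contig. Per the file headers, the matrices come from Cell Ranger 4. The submitters' processing notes name bcl2fastq 2.20, Cell Ranger 4.0.0, STAR 2.7.5c, R 4.1.2, Seurat and the build mm10, with no settings. Matrices are unfiltered (144565182 and 81224453 gene UMIs). The genes and lists were chosen with earlier results of these data known. Every gene of the list is named, with the fixed partner genes and any partner past the fold. The values of 2 partner genes are not reported here. Counts were summed per group with numpy 2.4.6, pandas 2.3.3 and scipy 1.17.1. CPM uses all gene UMIs of the sum (CD8: 24172587 and 16031413; CD4: 4473680 and 3767890), and a sum of 0 was set to 3 counts. The mitochondrial limit removed 0 barcodes, and the myeloid limit 857 and 1056. No doublet caller was run. Intervals are exact and cover counting error only. The code was run on counts drawn as Poisson for the day-13 CD8 clone comparison, with 8625 genes. Intervals held the true ratio for 95.1%, and 101 of 103 genes changed by 1 and 79 of 97 changed by 0.5 were found. The intervals assume Poisson counts, so this coverage was set in advance. It says nothing of spread between cells, clones or animals. Alternatives covered class, depth, scaling, cycling, clone definition, the fold and each set left out; those on a UMI window, a looser CD4 class and another draw were chosen after seeing the data. All deposited files given were read.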

Additional observations from a re-analysis of the deposited data

Results flagged for a closer look

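CD3 RNA also appeared in barcodes outside the comparisons. In contig barcodes with no Cd8a, Cd8b1 or Cd4 UMI (448 and 232) the 4 CD3 genes summed to 2302.3 CPM at day 13 and 2354.7 CPM at day 19. Barcodes outside the contig tables with at least 10 UMIs of C1qa, Lyz2 and Csf1r numbered 2225 and 972, had medians of 18714 and 24721.5 UMIs, and held 1427.5 and 1864.2 CPM of the CD3 genes, with 178 and 217 CPM of Cd8a and 47.7 and 67.6 CPM of Cd4. Free RNA, doublets with T cells and T cells without a contig cannot be told apart in these barcodes. CD8 T cells had 3252 and 3302 CPM. The 2 groups of 1 sample were too small to look for a sample far from the others.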

How the results depend on the processing

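The comparisons were recomputed under 24 other settings in all, each result under those that apply to it. Of 530 recomputed log2 ratios of genes past the threshold, 529 kept their sign and 455 stayed past the threshold. No paired analysis was possible because each day is 1 sample and no result comes from a test. In CD8 T cells of at least 8000 UMIs, fewer genes were past the threshold on both days. The cause of the differences below was not tested.

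With classes set by antibody tags, which left 0 and 2 CD4 T cells, so that CD4 comparisons were not run, 2 values that were past the threshold, or for a share beyond the SD over sets, changed sign: Zap70 in the Havcr2 against the Tcf7 state at day 19, to -0.20, and the difference in Cd8b1 share there, to 0.12 percentage points from -6.30. The day-13 ratio of Zap70, 0.26 and so short of the threshold, also changed sign, to -0.06. For the CD3 complex (log2 ratios), Pdcd1 in CD4 T cells at day 13 went from 0.23 to 0.13 with states on all UMIs, 0.47 with at least 8000 UMIs, 0.14 with at least 3000, 0.18 without myeloid UMIs, 0.19 with median scaling and 0.13 with 5000 to 10000 UMIs. Pdcd1 in CD8 T cells at day 13 went from 0.38 to 0.29 with at least 8000 UMIs, 0.27 with median scaling, 0.23 with a total without ribosomal, mitochondrial and TCR genes (the restricted total), 0.50 without cycling cells and 0.52 with 5000 to 10000 UMIs. CD8 clones at day 13 went from 0.50 to 0.36, 0.33, 0.69 and 0.74 with at least 8000 UMIs, the restricted total, no cycling cells and 5000 to 10000 UMIs. The Havcr2 against the Tcf7 state at day 13 went from 0.28 to 0.50 without cycling cells and 0.70 with 5000 to 10000 UMIs. Its lowest value under any setting was 0.16. Foxp3 at day 19 went from -0.34 to -0.15 with at least 3000 UMIs, -0.061 without cycling cells and -0.067 with 5000 to 10000 UMIs. The last of these settings gave 0.10 at day 13. With 1 set left out the day-19 value ranged from -0.38 to -0.16, and its most negative value under the other settings was -0.48. Pdcd1 in CD4 T cells at day 19 (0.43) ranged from 0.22 to 0.51 with 1 set left out. CD4 T cells between days had 0.47 with at least 8000 UMIs, the highest value, and 0.15 as the lowest under any setting. CD4 clones at day 19 had 0.56 for clones of 5 or more, the highest value, and 0.12 as the lowest.

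Counts of genes higher changed as follows, with the percentage of all genes in parentheses where it was computed. The Havcr2 against Tcf7 comparison (2) gave 1 with at least 8000 UMIs (4.84%), median scaling (5.3%) or the restricted total (4.74%). It gave 1 with equal weight of sets, and 5 with 5000 to 10000 UMIs (10.6%). Pdcd1 in CD8 T cells (3) gave 0 with at least 8000 UMIs (3.24%), and 1 with median scaling (5.23%) or the restricted total (4.62%). It gave 5 without cycling cells (6.86%) or with 5000 to 10000 UMIs (7.42%). CD8 clones (4) gave 1 with at least 8000 UMIs (4.15%). Pdcd1 in CD4 T cells (1) gave 3 with at least 8000 UMIs (2.11%) or the looser CD4 class. It gave 0 with at least 3000 UMIs or with 5000 to 10000 UMIs (1.53%). The CD4 day comparison (1) gave 3 with at least 8000 UMIs and 0 with at least 3000 UMIs or the looser class. The percentage of all genes was not computed for it under these settings, so these counts cannot be set against one. A threshold of 1, on both days or between them, left 0 in all 5. In the same order of comparisons, 1.59%, 1.72%, 1.75%, 0.224% and 1.21% of all genes passed it. The difference in TRA share by Foxp3 at day 13 went from 13.5 percentage points to 9.59 with at least 8000 UMIs, 8.90 with at least 3000, 10.1 without myeloid UMIs, 10.3 with 5000 to 10000 and 10.7 with another draw. The difference in Cd8b1 share between the Havcr2 and Tcf7 states was -4.53 at day 13 (-8.41) and -11.2 at day 19 with 5000 to 10000 UMIs.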
